A study of Mus musculus with 8 samples.

Results

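The genes described here are 10 genes that mark T cell activation and regulatory T cells in mouse lymph node (LN): Il2ra, Foxp3, Ikzf2, Ctla4, Icos, Pdcd1, Tnfrsf4, Tnfrsf18, Cd44 and Cd69. A gene was read from the probe sets that the array annotation gives to that gene alone, and the one with the highest mean over the 8 arrays stood for it. By this rule 9 of the 10 genes were measured, by 12 probe sets, out of 12393 genes with a probe set of their own. Cd69, an early surface marker of activated lymphocytes, has no probe set of its own in the annotation used here and was not analysed here.

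The study asked whether loss of the histamine H3 receptor, encoded by Hrh3, changes gene expression in LN at rest and early after the adjuvants used to induce autoimmune encephalomyelitis. Whole LN RNA from C57Bl/6 wild-type (WT) mice was compared with that of H3RKO mice, which carry a targeted Hrh3 allele in the germline (B6.129P2-Hrh3tm1Twl). Each genotype was sampled untreated (2 arrays), at 24 h after complete Freund's adjuvant (CFA, 1 array) and at 24 h after CFA with pertussis toxin (CFA+PTX, 1 array). Every array was hybridised with RNA pooled from at least 3 female and male mice of 8 weeks of age. The CFA+PTX samples are described as having received both agents, although their titles name the toxin only. The single treated arrays have no replicate, so a difference that involves 1 treated array per genotype is judged against the spread of the untreated pairs. The 2 untreated pools of a genotype are the only repeats, and nothing states how they were made separate. For genotype comparisons within a treatment and for the interaction, p-values measure the spread between these pools only. For comparisons over both genotypes or all treatments, the spread also takes in how the genotype difference varied between treatments. The WT CFA+PTX array enters that spread. Values are log2 signals after Robust Multichip Average (RMA) normalization, on which a difference of 1 is 2-fold. The brightness of a probe set also depends on its sequence, so a rank of signals between probe sets is not a rank of RNA levels.

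A resting T cell that meets its antigen brings new receptors to its surface, among them CD69, the high-affinity chain of the interleukin-2 receptor (CD25, encoded by Il2ra) and a series of costimulatory and inhibitory receptors. Regulatory T cells, which restrain other T cells and are specified by the transcription factor Foxp3, carry many of the same receptors without prior challenge, including CD25, CTLA-4, OX40 (Tnfrsf4) and GITR (Tnfrsf18). In whole LN these transcripts are therefore shared between newly activated conventional T cells and regulatory T cells.

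Every array had LN content by its marker genes. The mean log2 signal of 16 measured genes of the T cell receptor and T cell identity lay between 10.62 and 10.89 in the 8 arrays and that of 10 B cell markers between 11.26 and 11.55. Salivary and lacrimal gland genes, of 10 measured, averaged 12.71 to 13.43 in 6 arrays, 9.71 in the first WT untreated array and 5.46 in the WT CFA+PTX array, so by this list the WT CFA+PTX array stood apart. Neutrophil markers averaged 7.98 to 8.63 in the 4 H3RKO arrays and 7.57 to 7.83 in the 4 WT arrays. Hrh3 itself has 1 probe set, at 6.56 to 6.66 in WT and 7.20 to 7.29 in H3RKO arrays, which the sources used here do not place relative to the deletion and which does not check the labels. Values that turned on the WT CFA+PTX array are also given without it.

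The range of a gene from its lowest to its highest array ran from 0.16 for Tnfrsf18 to 0.71 for Ctla4 on the log2 scale. Every gene differed by less than 2-fold between any 2 arrays. Beside all probe sets these ranges were not all small. That of Ctla4 was wider than the range of 92.8% of probe sets, Il2ra 86.3%, Pdcd1 85.2%, Foxp3 79.3% and Ikzf2 64.6%. For Tnfrsf4, Icos, Cd44 and Tnfrsf18 the shares were 46.5%, 46.3%, 35.8% and 8.85%. The mean signal of Cd44 was higher than that of 93.6% of all probe sets and that of Pdcd1 higher than 33.4%. The probe set of Ikzf2 was dim, at 4.18 to 4.57 beside a median of 7.97 over all values. The deposited values carry no call of signal over background. The plot of signals by array gives all 72 values of the 9 genes.

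**Figure D1:**
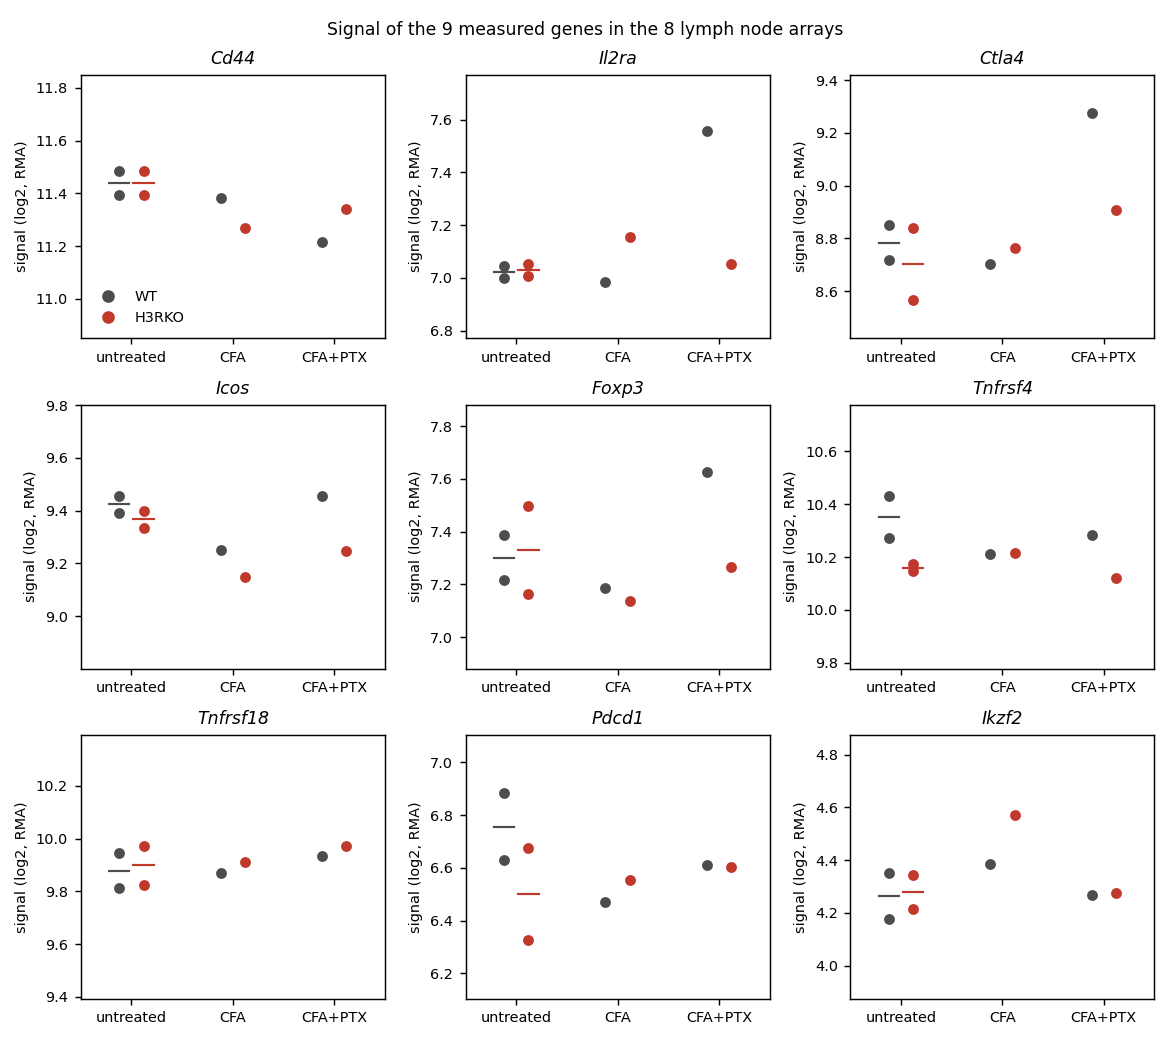
Log2 RMA signal (y axis, a window of 1 log2 unit in every panel, not starting at 0) of the 9 genes in untreated, CFA and CFA+PTX LN (x axis). Each point is 1 array of a pool, grey for WT and red for H3RKO, and a short line marks each untreated mean. The WT CFA+PTX point stands highest for Il2ra (7.56), Ctla4 (9.28) and Foxp3 (7.63).

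Of the genes of the interleukin-2 receptor and the transcription factors of regulatory T cells, Il2ra had 1 array apart from the rest. Its log2 signal was 7.05 and 6.998 in untreated WT LN, 7.05 and 7.01 in untreated H3RKO LN, 6.98 and 7.15 after CFA in WT and H3RKO, and 7.56 and 7.05 after CFA+PTX in WT and H3RKO. The 7 arrays other than WT CFA+PTX thus lay within 0.17 of each other, and that array was 0.40 above the next, a gap exceeded by 0.376% of all probe sets when each is read in the same array. A second, dimmer Il2ra probe set was also highest in WT CFA+PTX, at 6.26, with the other 7 arrays between 5.80 and 6.03. Probe sets of 1 gene in 1 array share their RNA, so the second is no replicate of the first.

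Foxp3, the factor that specifies regulatory T cells, had a log2 signal of 7.39 and 7.22 in untreated WT LN and 7.50 and 7.16 in untreated H3RKO LN. After CFA it was 7.19 in WT and 7.14 in H3RKO, and after CFA+PTX 7.63 in WT and 7.26 in H3RKO. WT CFA+PTX was again the highest array, by 0.13, a gap smaller than that between the 2 untreated H3RKO pools. A gap of this size or more above the next array was found in that array for 6.05% of probe sets. Ikzf2, which encodes Helios, a zinc-finger factor of most thymus-derived regulatory T cells, lay at 4.35, 4.18, 4.22 and 4.34 in the untreated arrays (WT, then H3RKO), at 4.38 and 4.57 after CFA and at 4.27 and 4.28 after CFA+PTX. Here the H3RKO CFA array was the highest and the untreated arrays of both genotypes overlapped.

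The genes of the CD28 family followed 2 patterns. Ctla4, an inhibitory receptor that competes with CD28 for its ligands, gave 8.85 and 8.72 in the untreated WT pools, 8.84 and 8.57 in those of H3RKO, 8.70 and 8.76 after CFA (WT, H3RKO) and 9.28 and 8.91 after CFA+PTX. Both CFA+PTX arrays were above all 6 others, the H3RKO one by less than the distance between untreated pools, and WT CFA+PTX stood 0.37 above the next array, a gap that 0.499% of probe sets exceeded in that array. Icos, an inducible costimulator of effector and follicular T cells, gave 9.46 and 9.39 in WT and 9.40 and 9.34 in H3RKO LN without treatment, 9.25 and 9.15 after CFA, and 9.46 and 9.25 after CFA+PTX. Its WT CFA+PTX value was within 0.01 of the first untreated WT array, and the other 3 injected arrays were below all the untreated ones. Pdcd1, which encodes the inhibitory receptor PD-1, gave 6.63 and 6.88 in WT and 6.67 and 6.32 in H3RKO LN without treatment, 6.47 and 6.55 after CFA and 6.61 and 6.603 after CFA+PTX. The untreated pools of Pdcd1 spanned its whole range, with the 4 injected arrays between them.

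Both members of the tumor necrosis factor receptor family, which lie next to each other on chromosome 4, were nearly level. Tnfrsf4 (OX40), a costimulator of activated T cells, gave 10.43 and 10.27 in the untreated WT pools, 10.17 and 10.15 in those of H3RKO, 10.21 and 10.21 after CFA, and 10.28 and 10.12 after CFA+PTX. In untreated LN both H3RKO arrays of Tnfrsf4 were below both WT arrays, and the share of all probe sets that did so was not counted. Tnfrsf18 (GITR), a receptor abundant on regulatory T cells, gave 9.94 and 9.81 in the untreated WT pools, 9.97 and 9.82 in those of H3RKO, 9.87 and 9.91 after CFA, and 9.93 and 9.97 after CFA+PTX, and its untreated pools covered nearly all of its range. Cd44, the hyaluronan receptor that stays high on activated and memory T cells but is also made by most leukocytes, gave 11.39 and 11.49 in the untreated WT pools, 11.39 and 11.48 in those of H3RKO, 11.38 and 11.27 after CFA and 11.21 and 11.34 after CFA+PTX. All 4 injected arrays of Cd44 were below all 4 untreated arrays, by a margin of 0.01 at the closest.

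The first comparison asked how these genes stood a day after adjuvant, from the 4 injected arrays against the 4 untreated ones with genotype in the model. None of the 9 genes was shown to change: 0 were called at an adjusted p under 0.05 (limma), against 0.0177% of all probe sets, and 0 had an unadjusted p under 0.05, against 11.0%. In bulk LN, fewer cells of a type and less RNA per cell cannot be told apart. The differences ran from -0.14 ± 0.06 (SE) for Cd44 (adjusted p = 0.475, limma) to 0.17 ± 0.09 for Ctla4 (adjusted p = 0.566, limma), with Il2ra at 0.16 ± 0.11 and Icos at -0.12 ± 0.05. Of the rest, Ikzf2 was at 0.10, Tnfrsf18 at 0.03, Foxp3 at -0.01, Tnfrsf4 at -0.05 and Pdcd1 at -0.07. Every 95% interval lay between -0.32 and 0.41, so for each gene alone a change over 1.33-fold either way is outside its interval. The median of the 9 differences was -0.01, beside 0.01 over all probe sets tested. Cd44 was the only member whose injected and untreated arrays did not overlap (1 lower, 0 higher), where 2.98% of all probe sets were lower and 3.07% higher without overlap. The Il2ra difference was 0.02 without the WT CFA+PTX array and 0.30 without the H3RKO CFA+PTX array, and that of Ctla4 was 0.08 and 0.25, none of them called.

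**Figure D2:**
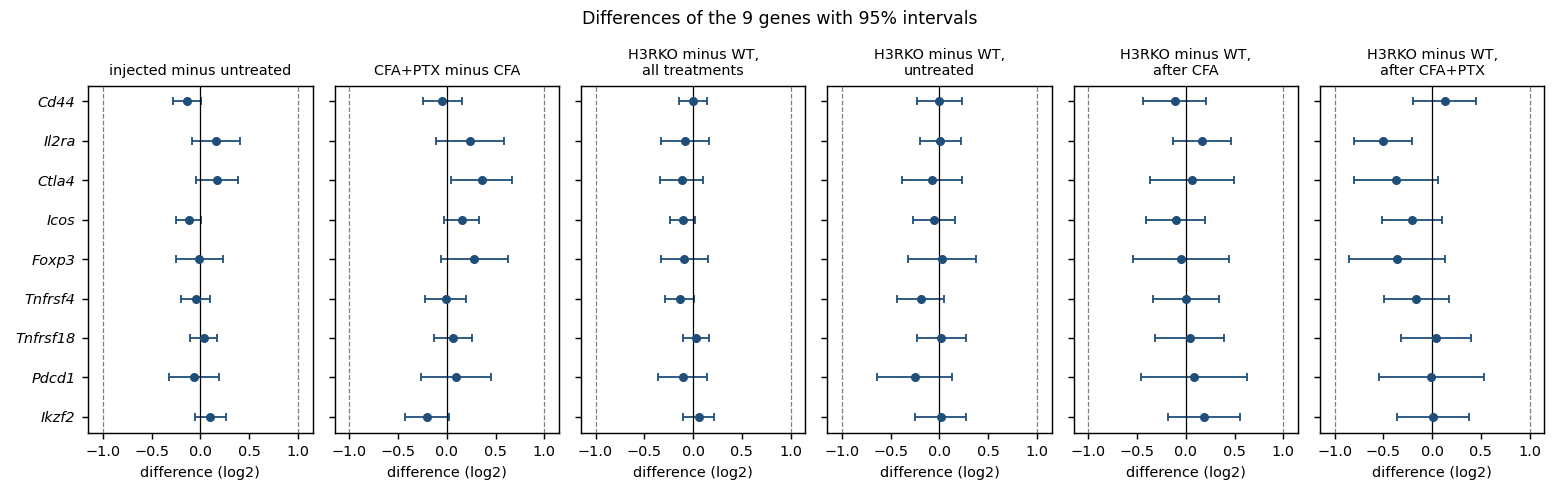
Differences of the 9 genes (rows) on the log2 scale (x axis) in 6 comparisons (panels), as limma estimates (points) with 95% intervals (bars); dashed lines mark 2-fold. All intervals lie inside 2-fold, and that of Il2ra after CFA+PTX (-0.50) lies wholly below 0.

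The second comparison asked whether CFA+PTX differed from CFA alone, with 2 arrays on each side, 1 per genotype. Here 0 of 9 genes were called, as in all probe sets (0%), and 1 had an unadjusted p under 0.05, against 5.47% of all probe sets. That gene was Ctla4, at 0.36 ± 0.13 over the genotypes (adjusted p = 0.891, limma). In WT alone it was 0.57 higher after CFA+PTX, and in H3RKO alone 0.14, less than the 0.27 between the untreated H3RKO pools. Foxp3 was at 0.28 ± 0.14, Il2ra at 0.24 ± 0.15, Icos at 0.15 ± 0.08 and Ikzf2 at -0.20 ± 0.10, and none of these passed either threshold. The remaining 4 genes were between -0.05 and 0.10. Il2ra depended on which genotype was kept: its difference was 0.52 without the H3RKO CFA+PTX array and -0.05 without the WT CFA+PTX array. Ctla4 kept its sign without either (0.53 and 0.19), as did Foxp3 (0.47 and 0.10). With the mean of the gland genes per array as a covariate, the differences were 0.18 for Ctla4, 0.10 for Foxp3 and 0.01 for Il2ra.

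The remaining comparisons asked whether the genotypes differed. Over all treatments, 4 H3RKO arrays against 4 WT arrays with treatment in the model, 0 of 9 genes were called against 0% of all probe sets, and 0 had an unadjusted p under 0.05 against 3.64%. The differences (H3RKO minus WT) ran from -0.14 ± 0.06 for Tnfrsf4 to 0.06 ± 0.07 for Ikzf2, and the 95% intervals from -0.36 to 0.21. Leaving out the WT CFA+PTX array changed the sign of 3 of the genes. Il2ra went from -0.08 to 0.06, Foxp3 from -0.09 to 0.00 and Cd44 from 0.00 to -0.04, while Ctla4 went from -0.12 to -0.03. In this model, leaving out the H3RKO CFA+PTX array instead gives the same values, because genotype is then read from the untreated and CFA arrays only. The change can therefore not be laid to either CFA+PTX array. With the gland genes as a covariate 4 of the 9 changed sign, with Il2ra at 0.10, Foxp3 at 0.05, Ctla4 at 0.02 and Cd44 at -0.07. In untreated LN, the study's criterion of an unadjusted p under 0.05 with more than a 2-fold change called 0 of 9 genes against 0.150% of all probe sets, and 0 had an unadjusted p under 0.05 against 5.43%. Pdcd1 was at -0.26 ± 0.15 and Tnfrsf4 at -0.19 ± 0.10, with the other 7 genes between -0.08 and 0.03. With 1 untreated array left out in turn, Pdcd1 ran from -0.43 (without the first H3RKO array) to -0.08 (without the second H3RKO array), and Tnfrsf4 from -0.27 (without the second WT array) to -0.11 (without the first WT array). After CFA, with 1 array per genotype, the criterion called 0 of 9 genes against 0.225%, and 0 had an unadjusted p under 0.05 against 3.38%. The differences after CFA ran from -0.11 ± 0.13 for Cd44 to 0.19 ± 0.15 for Ikzf2.

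After CFA+PTX the criterion again called 0 of 9 genes, against 0.362% of all probe sets, and 1 gene had an unadjusted p under 0.05, against 3.24%. That gene was Il2ra, 1.42-fold lower in the H3RKO array (-0.50 ± 0.12 on the log2 scale, adjusted p = 1.00, limma). Ctla4 was at -0.37 ± 0.17 and Foxp3 at -0.36 ± 0.20, neither with an unadjusted p under 0.05. Icos was at -0.21 ± 0.12, Tnfrsf4 at -0.16 ± 0.13, and Tnfrsf18, Pdcd1 and Ikzf2 between -0.01 and 0.04, while Cd44 was at 0.13 ± 0.13. The median of the 9 was -0.16, beside -0.02 over all probe sets. These values rest on 2 arrays, and the WT CFA+PTX array was the highest of the 8 for 4 of the 9 members and for 21.2% of all probe sets. In that pair the gland genes differed by a median of 8.09 and the neutrophil markers by 1.07, with 16 measured T cell identity genes at 0.01. Of these 16 genes 9 were higher and 7 lower in H3RKO. They ran from Cd4 at -0.28, Trat1 at -0.25 and Cd28 at -0.20 to Cd8a at 0.19, all named after their values were seen. The part of gland, neutrophil and T cell content in the differences of Il2ra, Ctla4 and Foxp3 was not tested.

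Whether injection acted differently on the genotypes was read from an interaction term, which called 0 of 9 genes against 0.203% of all probe sets, with 0 at an unadjusted p under 0.05 against 4.78%. Its values ran from -0.24 ± 0.20 for Foxp3 to 0.29 ± 0.22 for Pdcd1. Restricted to the CFA+PTX arrays, a contrast added after the data were seen, the genotype difference of Il2ra departed from that of untreated LN by -0.51 ± 0.15 (adjusted p = 1.00, limma) and from that after CFA by -0.67 ± 0.17 (adjusted p = 1.00, limma). The other 8 genes had no unadjusted p under 0.05 in either contrast.

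Cd44, Il2ra and Icos had a second probe set each. That of Cd44 spread further than the first: it gave 9.23 and 9.17 in the untreated WT pools, 9.62 and 9.55 in those of H3RKO, 9.18 and 8.77 after CFA (WT, H3RKO) and 8.82 and 8.99 after CFA+PTX. Both untreated H3RKO arrays were the highest, and the WT CFA array lay between the untreated WT arrays while the other 3 injected arrays were lower. Its injected minus untreated difference was -0.45 ± 0.13 (adjusted p = 0.314, limma), where the brighter Cd44 probe set gave -0.14. In untreated LN it was higher in H3RKO by 0.38 ± 0.09 (adjusted p = 0.916, limma), where the brighter probe set differed by less than 0.01, so the 2 probe sets of Cd44 did not measure the same differences. The second Icos probe set was lower in all 4 H3RKO arrays (8.95 to 9.22) than in all 4 WT arrays (9.24 to 9.31), a difference of -0.17 ± 0.06 (adjusted p = 0.999, limma), beside -0.11 ± 0.05 for the brighter one, whose arrays overlapped. The share of all probe sets that separate the genotypes in this way was not counted. The departures of each array from the untreated mean are shown for all 12 probe sets beside marker lists.

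**Figure D3:**
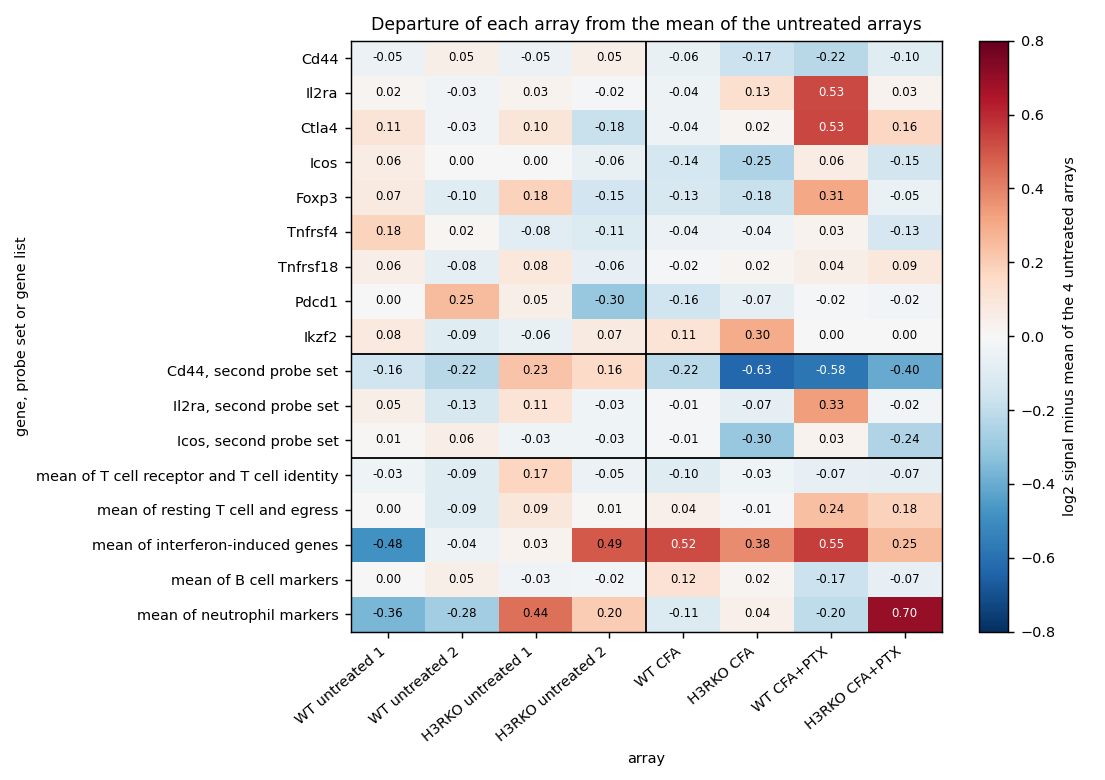
Log2 signal of each array (columns) minus the mean of the 4 untreated arrays, for the 9 genes, the second probe sets of Cd44, Il2ra and Icos, and the mean of 5 gene lists (rows); red is above and blue below that mean, with the value in each cell. Il2ra and Ctla4 are each 0.53 above it in WT CFA+PTX, where T cell identity genes are at -0.07.

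The upstream sequences of Il2ra, Ctla4 and Foxp3 are shown because these genes stood highest in WT CFA+PTX by more than 0.1. Icos, also highest there but by less than 0.01, has no window in the table used. NFAT, AP-1 and STAT factors carry T cell receptor and interleukin-2 signals to such genes. The 250 bases before each RefSeq start site (build GRCm38.p6) are written 5′ to 3′ on the strand of the gene, with capitals for matches on either strand to the NFAT core GGAAA, the STAT motif TTCNNNGAA, the AP-1 motif TGANTCA or TATAAA. RefSeq has 2 start sites for Foxp3 in the table used.
Il2ra, chr2:11642542-11642791, plus strand: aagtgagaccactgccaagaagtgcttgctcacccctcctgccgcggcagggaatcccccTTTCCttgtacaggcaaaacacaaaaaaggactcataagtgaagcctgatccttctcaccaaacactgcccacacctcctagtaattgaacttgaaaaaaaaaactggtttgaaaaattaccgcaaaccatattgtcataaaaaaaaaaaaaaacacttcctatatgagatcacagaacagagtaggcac
Ctla4, chr1:60908775-60909024, plus strand: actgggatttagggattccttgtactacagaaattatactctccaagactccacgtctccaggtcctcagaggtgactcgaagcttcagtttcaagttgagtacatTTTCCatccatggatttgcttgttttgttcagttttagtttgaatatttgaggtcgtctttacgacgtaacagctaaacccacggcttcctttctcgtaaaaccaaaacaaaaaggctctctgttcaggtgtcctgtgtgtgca
Foxp3, chrX:7579426-7579675, plus strand: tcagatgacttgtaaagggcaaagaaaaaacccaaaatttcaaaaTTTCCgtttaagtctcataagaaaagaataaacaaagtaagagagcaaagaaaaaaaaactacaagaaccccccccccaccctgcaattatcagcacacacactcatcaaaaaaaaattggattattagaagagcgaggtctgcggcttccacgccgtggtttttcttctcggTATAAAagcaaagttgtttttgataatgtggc
Foxp3, chrX:7580233-7580482, plus strand: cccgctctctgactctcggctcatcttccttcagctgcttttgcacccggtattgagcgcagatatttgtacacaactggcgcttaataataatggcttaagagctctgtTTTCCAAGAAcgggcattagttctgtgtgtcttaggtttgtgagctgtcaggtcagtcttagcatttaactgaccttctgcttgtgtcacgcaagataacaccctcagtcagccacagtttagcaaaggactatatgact
Each of the 4 windows holds 1 NFAT core, as TTTCC, at -190 for Il2ra, -144 for Ctla4, and -205 and -140 for Foxp3, counted from the base before the start site. The second Foxp3 window also holds a STAT match from -139 to -131 that overlaps its NFAT core, and the first holds TATAAA at -32. Of 32851 windows of this length in the table, 55.6% hold the NFAT core, 7.02% the STAT motif, 6.75% the AP-1 motif and 12.4% TATAAA, so an NFAT core is in most windows. Windows were found for 7 of the 9 genes, and Cd44, Pdcd1, Tnfrsf4 and Tnfrsf18 also hold an NFAT core. Ctla4 lies between Cd28 and Icos on chromosome 1, and Il2ra lies next to Il15ra on chromosome 2.

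The wider T cell programme was described with gene lists, by counts and medians beside all probe sets. In injected against untreated LN, 0 genes of these lists were called, and the count at an unadjusted p under 0.05 is given against the 11.0% of all probe sets. Among 20 other T cell activation genes, 16 were lower, with a median of -0.08 and 4 at this p, all lower. Egr2, an early transcription factor downstream of the T cell receptor, gave 7.87 to 8.22 in the untreated and 7.19 to 7.76 in the injected arrays (-0.44 ± 0.11, adjusted p = 0.274, limma), and Cd83, a marker of activated lymphocytes and dendritic cells, was at -0.33 ± 0.08 (adjusted p = 0.255, limma). Among 18 other regulatory T cell genes, 11 were lower, with a median of -0.01 whose sign turned under 5 of the alternatives, the centring of the arrays on their medians among them. Their largest differences were those of Il10, an anti-inflammatory cytokine (0.32 ± 0.12), and Ebi3, a subunit of interleukin-35 and interleukin-27 (-0.24 ± 0.06). At an unadjusted p under 0.05 the list had 1 gene higher and 2 lower.

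Of 11 genes of interleukin-2 receptor partners and signalling, Il15 and Il15ra among them, 8 were higher after injection. The median of the 11 was 0.09, and 3 had an unadjusted p under 0.05, all higher. Socs3, a feedback inhibitor of cytokine receptors, gave 9.91 to 10.28 in the 4 untreated and 10.56 to 10.74 in the 4 injected arrays (0.54 ± 0.09, adjusted p = 0.138, limma). Il15ra, the receptor chain that presents interleukin-15 and the neighbour of Il2ra, gave 9.01 to 9.24 and 9.25 to 9.76 (0.30 ± 0.09, adjusted p = 0.320, limma), and its WT CFA+PTX array was the highest, as for Il2ra. Both genes had injected arrays wholly above the untreated ones, where 3.07% of all probe sets were higher without overlap. For Il15ra the margin was narrow, with WT CFA at 9.25 and the first untreated WT array at 9.24. Of 10 measured ligands of the members, 6 were higher, with a median of 0.05, and 1 had an unadjusted p under 0.05, namely Has2, an enzyme that makes the Cd44 ligand hyaluronan (-0.38 ± 0.14). Cd80, a ligand of CTLA-4 and CD28, was at 0.14 ± 0.08.

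Of 16 genes of T cell identity, 11 were lower after injection, with a median of -0.04 that turned positive under 2 alternatives, among them without the first H3RKO untreated array, and 3 had an unadjusted p under 0.05. The largest differences were in Cd8a (-0.37 ± 0.08) and Cd8b1 (-0.25 ± 0.06), which encode the CD8 coreceptor of cytotoxic T cells. Of 9 genes of resting T cells and LN egress, 7 were higher, with a median of 0.09 and 3 at an unadjusted p under 0.05, led by Il7r (0.43 ± 0.10), the survival receptor of resting T cells, and Ccr7 (0.27 ± 0.06), their LN homing receptor. Il7r was at 12.47 and 12.13 in the WT and H3RKO CFA+PTX arrays and at 11.34 to 11.67 in the other 6. Among 12 follicular helper and inhibitory receptor genes 9 were lower, with a median of -0.08 and 2 at an unadjusted p under 0.05, both lower, namely Bcl6, the factor of follicular helper and germinal centre cells, at -0.20 ± 0.08 and Maf at -0.19 ± 0.06.

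For scale, 17 interferon-induced genes had a median of 0.45 after injection over both genotypes, with 16 higher and 7 at an unadjusted p under 0.05, none called. The interaction of genotype with injection had a median of -0.77 with 17 of 17 genes lower and 3 past its criterion (0.203% of all probe sets), and in untreated LN 17 of 17 were higher in H3RKO, with a median of 0.46. Their mean signal in WT was 9.25 and 9.69 untreated and 10.25 and 10.28 injected, and in H3RKO 9.76 and 10.22 untreated and 10.11 and 9.98 injected, with CFA before CFA+PTX, so that the H3RKO arrays overlapped. By their medians, markers of other cells and tissues stood as follows after injection: 8 NK cell markers had a median of -0.20, 9 dendritic cell markers -0.13, 8 adipocyte markers -0.34, 13 monocyte and macrophage markers 0.08, 12 neutrophil markers 0.06, 10 B cell markers -0.01, 10 skeletal muscle markers -0.16 and 10 gland genes -1.40. Several of these signs turned on 1 array or setting. The gland median was 0.38 without the WT CFA+PTX array, and the neutrophil median -0.12 without the WT CFA array and -0.02 without the H3RKO CFA+PTX array. That of muscle reached 0.15 with an H3RKO array left out (the first untreated or the CFA+PTX one), that of dendritic cells was 0.04 with bright probe sets only, and that of B cells changed sign under 5 alternatives. Their part in the differences of the members was not tested.

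**Figure D4:**
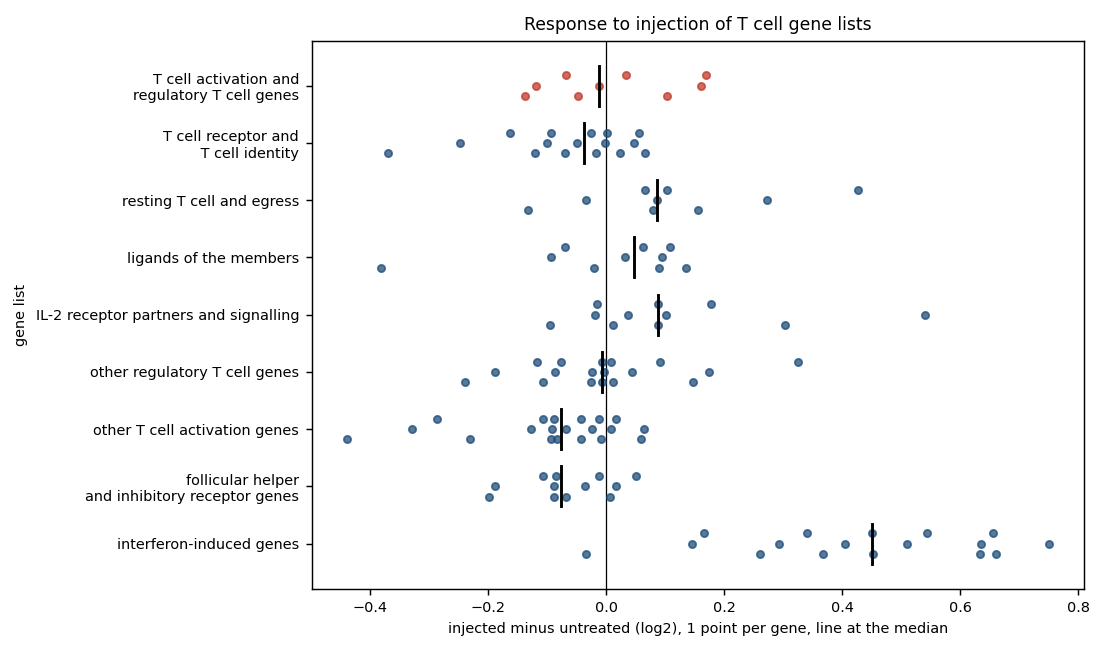
Injected minus untreated difference on the log2 scale (x axis) for each gene (point) of the 9 measured T cell activation and regulatory T cell genes (red) and of 8 gene lists (blue), with the median of each list as a black line. The 9 genes lie between -0.14 and 0.17, and the interferon-induced genes centre on 0.45.

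In the genotype comparison after CFA+PTX, the other regulatory T cell genes were mostly lower: 16 of 18 were lower in the H3RKO array, with a median of -0.16 beside -0.02 over all probe sets. Of these, 1 had an unadjusted p under 0.05, namely Gzmb (-0.66), while 0 met the criterion. Izumo1r, Tgfb1, Ebi3 and Il10 were between -0.02 and 0.02, and they and Gzmb were picked here after their values were seen. Socs2 is in this list and in the next one, and is counted in both. The list of interleukin-2 receptor partners and signalling had 9 of 11 lower and a median of -0.17, with 2 at an unadjusted p under 0.05. These were Il15 (-0.33) and Il15ra (-0.44), the genes of interleukin-15 and its receptor chain, named after their values were seen. The rest of this list is given in full, also after its values were seen. Cish was at -0.35, Il2rb at -0.30, Socs2 at -0.24, Socs1 at -0.17, Jak1 at -0.12 and Jak3 at -0.06. Stat5a and Stat5b were at -0.01 and 0.00, and Socs3 was at 0.18. The other T cell activation genes were mostly higher, with 14 of 20 higher, a median of 0.08 and 2 at an unadjusted p under 0.05, both higher, namely the immediate early genes Nr4a1 (0.66) and Egr1 (0.73), named after their values were seen. Lists outside the T cell programme went both ways in the same pair. Lower were 16 of 17 interferon-induced genes (median -0.34), 12 of 13 monocyte and macrophage markers (-0.25) and 10 of 10 skeletal muscle markers (-0.52). Higher were 8 of 10 B cell markers (0.10), 11 of 12 neutrophil markers (1.07) and 10 of 10 gland genes (8.09). Dendritic cell and adipocyte markers were lower for 6 of 9 and 5 of 8, and NK cell markers split 4 to 4. Lower values were thus not shown to be particular to regulatory T cell genes. All these counts come from the same 2 arrays, against 3.24% of all probe sets at an unadjusted p under 0.05.

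The genes whose pattern over the 8 arrays was most like that of each member, among 7012 or more genes of more than median signal, give the shape of that pattern as a description. Il2ra was most like Lnx2 (Pearson r = 0.975), Zhx1 and Hltf, Ctla4 like C1qtnf1 (0.984), C1ra and Snrk, and Foxp3 like Smc4 (0.983), Txlng and Selenon. Icos was most like Ccl5 (0.967), Hpgd and Rbpms, and Pdcd1 like Rfwd3 (0.932), Ezh2 and Tceanc2. Cd44 was most like Arpc5 (0.956), Grpel2 and Phlda1, Tnfrsf4 like Cebpa (0.945), Stx1a and Rabggtb, Tnfrsf18 like Ptch1 (0.952), Ing3 and Gimap6, and Ikzf2 like 2310061I04Rik (0.930), Dpf3 and Zfp87. The arrays share these groups and the WT CFA+PTX array, and each gene named was picked as 1 of the 3 highest values over all genes compared.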

How the data were processed

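LN RNA pools (8 arrays) were hybridised by the authors to single-colour Affymetrix arrays and summarised per probe set by RMA; the deposited log2 values run from 2.42 to 14.40. Of 22690 probe sets, 64 controls were left out and 22626 tested. limma 3.58.1 in R 4.3.3 (lmFit, eBayes) fitted an additive model of genotype and treatment (4 residual degrees of freedom; calls at a Benjamini-Hochberg adjusted p under 0.05) and a model of the 6 groups (2 residual degrees of freedom, all from untreated pairs; calls by the study's criterion), both tested on simulated data. The ± values are SE. All members are named. Other genes are the 2 with the largest injection difference per list and the 3 most correlated with each member. A few more are marked as named after their values were seen. The members and 17 lists were chosen with earlier results of these data known. Sex-linked transcripts, 1 of the lists, served only to describe the pools, with a median of 0.09 after injection. Alternatives were other moderation, normalization, centring, filters, probe set rules, a replicate block, a gland covariate and leaving out each array. Genes without a probe set of their own were not analysed here. Upstream sequences are from RefSeq. The number of arrays limits the precision, and plots used matplotlib 3.10.9.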

Additional observations from a re-analysis of the deposited data

Results flagged for a closer look

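Il2ra in the 4 WT arrays had 1 array far from the others. The WT CFA+PTX array gave a log2 signal of 7.56 and the other 3 WT arrays 6.98 to 7.05, so that 0.892 of the whole range lay between it and its neighbour. The 4 arrays differ in treatment and are not replicates of a group. In all, 36 groups of 4 arrays were examined, and chance gives such a value in about 1 of 20 groups.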

How the results depend on the processing

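No member was called under other normalizations, filters, models and left-out arrays, of which 18 were run for the 3 comparisons of the additive model, 13 for each genotype comparison within a treatment, and 15 for the interaction (the filter on dim probe sets keeps 5 of the 9 genes), and 878 of 944 differences kept their sign. The other 66 changed sign with no unadjusted p under 0.05, the largest of them 0.29 in size. The 15 settings of the interaction include its reading from the CFA+PTX arrays against untreated or against CFA, which are other contrasts. The 0.29, for Pdcd1, changed sign only when read against CFA. With the contrast kept, the largest was 0.24, for Il2ra in CFA+PTX minus CFA without the WT CFA+PTX array. With an unadjusted p under 0.05 alone, in the main setting, 1 gene passed in CFA+PTX minus CFA (Ctla4) and 1 in H3RKO minus WT after CFA+PTX (Il2ra). Other differences passed it under single alternatives. For injected minus untreated these included Cd44 with the mean of its own probe sets, Ctla4 centred on T cell genes and Icos without moderation. Icos also passed between genotypes over all treatments with the mean of its own probe sets. Settings with an array left out added others. The second Cd44 probe set, at -0.07 for CFA+PTX minus CFA, ran from -0.43 (without the H3RKO CFA array) to 0.29 (without the WT CFA array) with 1 array left out, and its interaction, at -0.50, was 0.58 for CFA+PTX against CFA, a contrast added after the data were seen. The cause was not tested. Untreated pools of the same number deviated with a correlation of 0.12 over 22626 probe sets, and 2 pairs do not settle whether the numbers pair the samples. With the replicate number as a block, 0 members were called and Ctla4 was at 0.07 for injected minus untreated. Signal over background is not given, which matters most for the dim probe set of Ikzf2.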
